A study of Mus musculus with 15 samples.

Results

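Crabp1 and Crabp2, which encode the cellular carriers of retinoic acid, Aox1, which encodes an aldehyde oxidase, and the nuclear receptor genes Rara, Rarg, Rxra and Rxrb were measured in an osteoblast precursor line during bone differentiation. Every probe set with 1 of these 7 symbols as its only gene symbol in the platform annotation was taken, which gave 8 of the 12488 probe sets on the array. Of these 8, 7 passed the signal filter and were tested, among 7453 tested probe sets in all, and the probe set of Crabp1 did not pass. The genes were selected on measured values of the same arrays, since Crabp2 and Aox1 were known to be low in treated cultures, and the others belong to the same pathway. Their differences between treated and GP cultures are therefore given as a description, with no p-value. The lists of other genes and of markers used below were also chosen with earlier results of these data known. The p-values of list genes are therefore not free of that knowledge.

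The cells were MC3T3 clone 1b, a single clone of a line derived from mouse calvaria, the flat bone of the skull. Total RNA was measured on 15 single-colour arrays in 5 groups of 3. The first group was in control medium at day 0. Cultures given beta-glycerol phosphate (GP), a phosphate source for mineral, were taken at days 1 and 3. Cultures given GP, ascorbic acid (AA, a cofactor of collagen hydroxylation) and bone morphogenetic protein 2 (BMP-2, a bone-inducing growth factor) were taken at the same days and are called treated. AA and BMP-2 were always given together, so their effects cannot be told apart, and GP was present in every group but day 0. Between day 0 and the GP cultures both the medium and the time differed, and they cannot be told apart. Each array carried a preparation number from 1 to 3, called the replicate. The labels do not state that the preparations came from separate cultures. The p-values therefore reflect only how far these arrays differ, and that spread may be technical. For arrays, their number limits the precision.

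Retinoic acid is made from vitamin A by oxidation of retinol to retinal and of retinal to the acid, and it acts through the retinoic acid receptors (RAR), which bind DNA as dimers with the retinoid X receptors (RXR). CRABP2 is known to bring retinoic acid to the receptors in the nucleus, and CRABP1 is known to hold it in the cytosol, where cytochromes of the CYP26 family break it down. AOX1 is a molybdenum enzyme that oxidises aldehydes and nitrogen-containing rings, and retinal is among the aldehydes it can oxidise in the test tube. In bone, retinoic acid is known to act on osteoblasts and on cartilage.

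Of 12 osteoblast markers listed, 8 were on the array and 6 passed the filter. Between treated and GP cultures at day 3, 2 of the 6 rose (Alpl and Tnfrsf11b), where 4.11% of all tested probe sets passed in either direction. Another 1, the cadherin gene Cdh11, fell by 1.24 ± 0.17 on the log2 scale (SE, limma adjusted p = 0.00138). Ibsp and Pth1r did not pass the filter, which uses the mean of the log2 values over all 15 arrays. At day 3 Pth1r lay between 57.4 and 419 units in treated and between 4.7 and 8.6 in GP cultures. Ibsp overlapped, at 15.3 to 45.6 in treated and 2.9 to 54.7 in GP cultures. Col1a1, the main bone collagen, lay between 6727 and 11862 intensity units on every array, and Alpl, the alkaline phosphatase of osteoblasts, lay between 363 and 971 in treated and between 20.6 and 33.4 in GP cultures at day 3. Of the 7 marker lists of other cell types, 11 genes were tested and 0 passed between treated and GP cultures at either day in limma, with 0 at day 1 and 1 at day 3 at an unadjusted p under 0.05. None of 6 endothelial markers passed the signal filter, and 1 of 6 chondrocyte and 1 of 5 epithelial markers did. So did 3 of 7 skeletal muscle, 2 of 7 macrophage and osteoclast and 2 of 5 neural and glial markers. Among these, Ctsk (macrophage and osteoclast) lay between 213.5 and 609.1 units and Cdh1 (epithelial) between 71 and 192.5. Of 6 adipocyte markers 2 passed the filter. Cebpa lay between 125 and 284 units and Lep between 73.5 and 296, while Fabp4 reached 56.2, Adipoq 17.9 and the regulator Pparg 2.4. The replicate 3 arrays stood apart from the others on the first principal component, and 12.1% to 14.3% of their values lay at or under the floor, against 7.3% to 10% on the other 10 arrays. The ratio of 3' to 5' actin signal, a sign of RNA quality, was 2.11 on the day 3 GP array of replicate 3 and 1 to 1.34 on the other 14.

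Among the retinoid genes, Crabp2 and Aox1 were low in all 6 treated arrays at both days. The RAR gene Rara was lower in treated cultures at day 1 but did not pass in limma. Rarg, Rxra and Rxrb showed no common direction. In limma with Benjamini-Hochberg adjustment over all 7453 probe sets, 2 of the 7 tested retinoid probe sets, those of Crabp2 and Aox1, were lower past the threshold of 0.05 at day 1, where 0.631% of all tested probe sets were lower and 0.926% passed in either direction. At day 3 the same 2 were lower past the threshold, where 2.08% of all were lower and 4.11% passed in either direction. With the replicate number as a block 4.99% of all tested probe sets passed at day 1 and 13.8% at day 3, and the retinoid probe sets past the threshold were again these 2 at each day. Because Crabp2 and Aox1 were chosen for this difference, nothing is read from these counts. The median log2 difference of the 7 retinoid probe sets was -0.07 at day 1 and 0.09 at day 3, and that of all tested probe sets was -0.00 at both.

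The day 1 count was 1 without GP replicate 1 or 2 or without treated replicate 2 or 3, and the day 3 count was 1 without GP replicate 1 or 2 or without treated replicate 2. Without all arrays of replicate 1, or of replicate 2, it was 0 at both days, while without replicate 3 it was 2 at both.

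**Figure D1:**
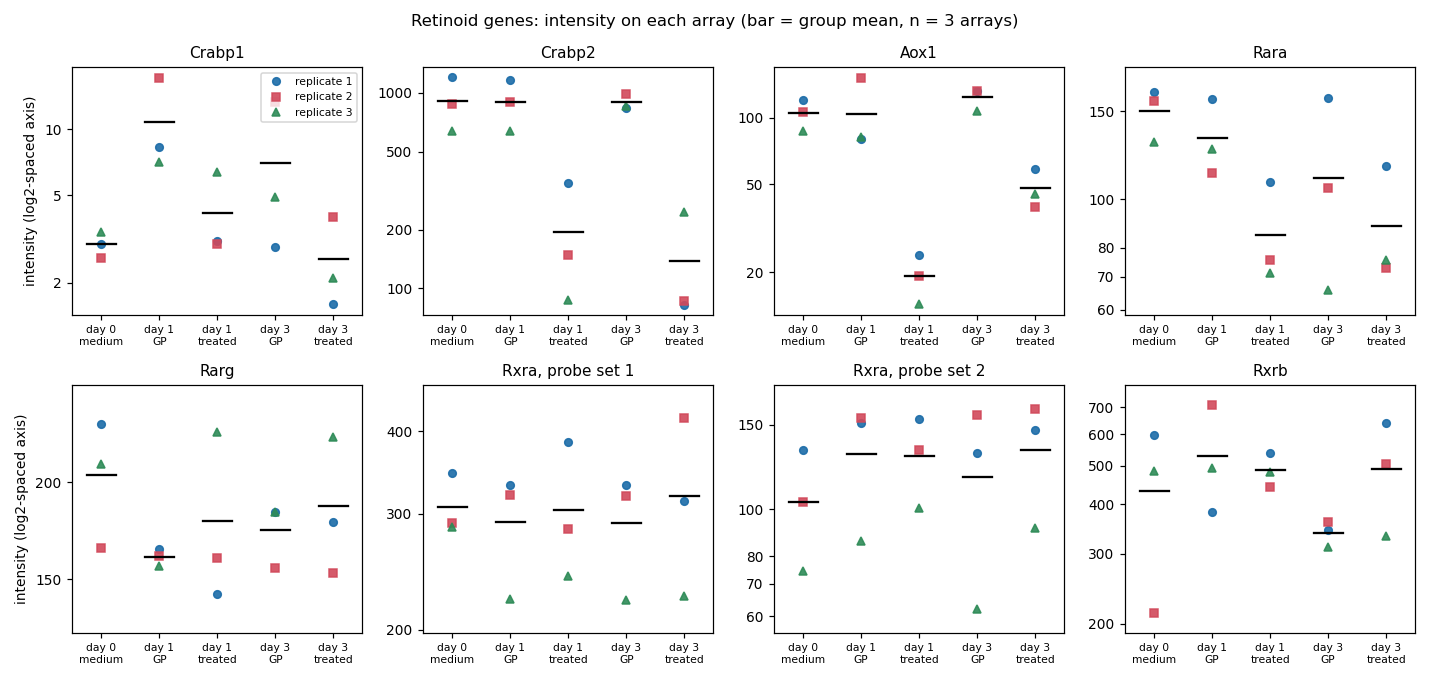
Intensity (log2-spaced vertical axis) of the 8 retinoid probe sets on each of the 15 arrays, by group, with 1 marker shape per replicate and a bar at the mean of 3 arrays. Crabp2 and Aox1 sit lower on all 6 treated arrays than on the other 9, the treated Rara group of day 1 sits below the day 1 GP group, and both Rxra probe sets have replicate 3 lowest in 5 of 5 groups.

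Crabp2 (probe set 100127_at) was 1205, 873 and 640.2 intensity units in replicates 1, 2 and 3 at day 0. In GP cultures it was 1167, 898 and 636 at day 1 and 838, 993 and 856 at day 3. In treated cultures it was 348, 149 and 87.5 at day 1 and 82.1, 86.5 and 246 at day 3. All 6 treated values lay below all 9 others. The group means were 906 ± 284 at day 0, 900.3 ± 265 and 896 ± 84.7 in GP cultures, and 195 ± 136 and 138 ± 93.2 in treated cultures (SD, n = 3 arrays). The treated mean on the log2 scale was 5.28-fold lower than that of GP cultures at day 1, a log2 difference of -2.40 ± 0.47 (SE), and 7.42-fold lower at day 3, at -2.89 ± 0.47. Fewer cells that express a gene and less RNA per cell cannot be told apart in such samples.

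The Crabp2 difference varied in size between replicates. Within replicates 1, 2 and 3 it was -1.75, -2.59 and -2.86 on the log2 scale at day 1, and -3.35, -3.52 and -1.80 at day 3. Replicate 1 had the smallest difference at day 1 and replicate 3 at day 3. From day 1 to day 3 of treatment the value was lower in replicates 1 and 2 and higher in replicate 3, so that the treated groups overlapped, with a log2 difference of -0.46 ± 0.47 (SE). Without the replicate 3 arrays the treated against GP difference was -2.17 ± 0.33 at day 1 and -3.44 ± 0.33 at day 3. Among all 7453 probe sets the Crabp2 difference ranked as number 6 from the lowest at day 1 and number 7 at day 3. Crabp2 was selected for this difference, so nothing is read from these ranks.

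GP alone left the mean of Crabp2 close to its day 0 value. The log2 difference was -0.00 ± 0.47 (SE) for GP day 1 against day 0 (limma adjusted p = 1), 0.03 ± 0.47 for GP day 3 against day 1 (0.998) and 0.03 ± 0.47 for GP day 3 against day 0 (1). In each of these 3 comparisons the groups overlapped. They use no treated array, but the GP arrays were part of the comparison on which Crabp2 was selected. These p-values are therefore not free of that choice. Against day 0 the treated cultures were at -2.41 ± 0.47 at day 1 and -2.86 ± 0.47 at day 3, which rest on the same treated arrays as the comparison with GP.

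Crabp1 (probe set 98108_at) stayed near the floor of the array on all 15 arrays. It was 3.0, 2.6 and 3.4 units at day 0, 8.3, 17.1 and 7.1 in GP cultures at day 1, and 2.9, 13.3 and 4.9 in GP cultures at day 3. Treated cultures had 3.1, 3.0 and 6.4 at day 1 and 1.6, 4.0 and 2.1 at day 3. The highest value was 17.1, in GP day 1 replicate 2, under the filter of 22.3, and 3 of the 15 values were at or under the floor of 2.8, so the gene was not tested. GP day 1 values lay above those of day 0 and of treated day 1, while treated and GP values overlapped at day 3.

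Fabp5, another carrier, was higher with treatment. Of 13 listed genes for retinoid carriers and uptake, among them the retinol-binding proteins and fatty acid-binding proteins, 9 were on the array and 1, Fabp5, passed the filter. It encodes a fatty acid-binding protein that can also carry retinoic acid, to the nuclear receptor PPAR delta. Its values were 184, 351 and 222 units at day 0, 306, 330 and 194 in GP cultures at day 1, and 234, 184 and 180.2 in GP cultures at day 3. Treated cultures had 522, 663 and 342 at day 1 and 649, 957 and 321 at day 3. Treated and GP values did not overlap at either day, as for 17.1% of all tested probe sets at day 1 and 20.1% at day 3. Replicate 3 was the lowest in each of these 4 groups. The difference was 0.87 ± 0.37 (SE) at day 1 (limma adjusted p = 0.376), which did not pass. Fabp5 rose by 1.56 ± 0.37 at day 3 (0.0319), where 4.11% of all tested probe sets passed. Its day 3 call was lost in 10 of 18 alternatives, and over all 18 the limma adjusted p ran from 0.00126 to 0.365. Among others, it was lost without GP replicate 1, 2 or 3 (adjusted p = 0.0679, 0.113 and 0.0654). It was also lost without treated replicate 1 or 2 (0.0928 and 0.109).

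Fabp7, which encodes the brain-type fatty acid-binding protein, did not pass the filter and was chosen after its values were seen. It was 8.0, 6.6 and 11.9 units in GP cultures and 128, 128 and 82.4 in treated cultures at day 1. At day 3 it was 2.8, 4.9 and 13.4 in GP and 101, 73.6 and 18.4 in treated cultures. The treated values lay above the GP values at both days, by a wide margin in replicates 1 and 2 and by a small one in replicate 3 at day 3. With no signal filter the log2 difference was 3.69 ± 0.69 (SE) at day 1 and 3.18 ± 0.69 at day 3, given as a description with no p-value. GP values near the floor make these sizes uncertain.

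Aox1 (probe set 104011_at) was 120.1, 107 and 87.0 units in replicates 1, 2 and 3 at day 0. In GP cultures it was 80.0, 151 and 81.4 at day 1 and 132, 132 and 108 at day 3. With treatment it was 24.0, 19.3 and 14.4 at day 1 and 58.7, 39.6 and 45.3 at day 3. Every treated value lay below every other value, and the 3 values of treated day 1 lay below the 3 of treated day 3. The group means were 105 ± 16.6 at day 0, 104 ± 40.4 and 124 ± 13.95 in GP cultures and 19.2 ± 4.80 and 47.9 ± 9.81 in treated cultures (SD, n = 3 arrays). The treated mean on the log2 scale was 5.28-fold lower at day 1, a log2 difference of -2.40 ± 0.28 (SE), and 2.61-fold lower at day 3, at -1.38 ± 0.28.

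Within replicates 1, 2 and 3 the Aox1 difference was -1.74, -2.96 and -2.50 at day 1 and -1.17, -1.73 and -1.25 at day 3. It was smaller at day 3 in every replicate. Without the replicate 3 arrays it was -2.35 ± 0.33 (SE) at day 1 and -1.45 ± 0.33 at day 3. The treated mean at day 1 was below the filter of 22.3, which leaves the day 1 size uncertain. With a floor of 78.9, under which every treated value lies, it was -0.33 at day 1 and -0.64 at day 3.

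Under treatment Aox1 was higher at day 3 than at day 1 by 1.33 ± 0.28 (SE) on the log2 scale, and by 1.29, 1.04 and 1.65 within replicates 1, 2 and 3. The groups did not overlap, as for 12.2% of all tested probe sets. This was past the threshold with the replicate block and not without it, as 0 of the 7 retinoid probe sets passed without the block (1 at an unadjusted p under 0.05) and 1 with it. Over all tested probe sets 0.148% passed without the block and 3.84% with it. Aox1 was chosen for its low treated values, so this is given as a description. The difference between the day 3 and the day 1 effects was 1.02 ± 0.40, from 0.57, 1.23 and 1.25 within the replicates. In that comparison 0 of 7 retinoid probe sets and 0% of all passed in limma, with 1 of the 7 and 270 of the 7453 at an unadjusted p under 0.05.

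GP alone did not separate the Aox1 groups. The log2 difference was -0.06 ± 0.28 (SE) for GP day 1 against day 0 (limma adjusted p = 1), 0.31 ± 0.28 for GP day 3 against day 1 (0.998) and 0.25 ± 0.28 for GP day 3 against day 0 (1), and the groups overlapped each time. In these 3 comparisons 0 of the 7 retinoid probe sets passed, also at an unadjusted p under 0.05, while 0.242%, 0.711% and 0% of all tested probe sets passed. For the last of them 312 of 7453 had an unadjusted p under 0.05. The GP arrays were part of the comparison on which Aox1 was selected, so its p-values here are not free of that choice.

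**Figure D2:**
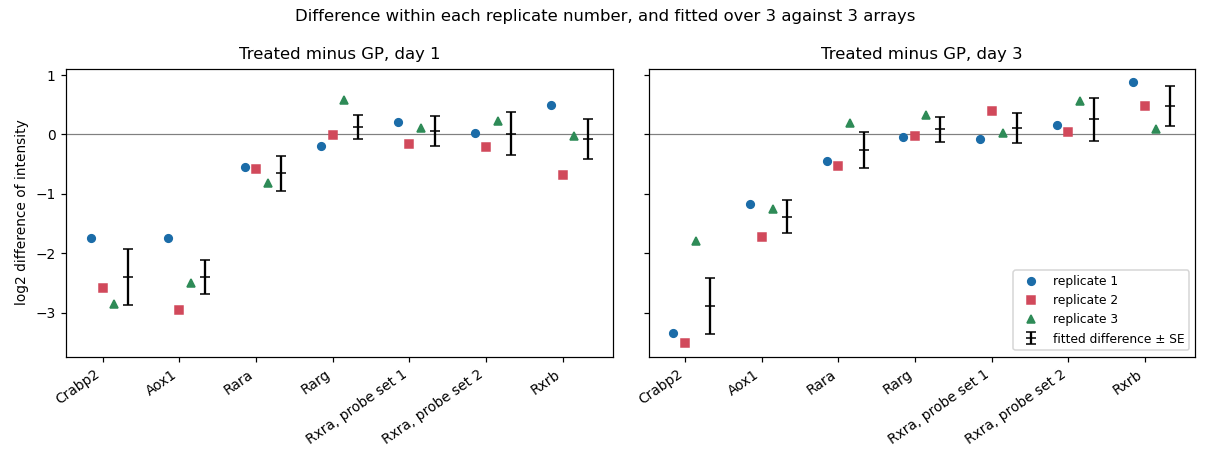
Log2 difference of intensity between treated and GP cultures at day 1 and at day 3 for the 7 tested retinoid probe sets, within each replicate (coloured markers) and as fitted over 3 against 3 arrays (black bar, ± SE). All replicates of Crabp2 and Aox1 lie below 0 at both days, from -3.52 to -1.17, while the RXR genes and Rarg lie on both sides of 0 at day 1.

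Start-site windows of the genes were taken from RefSeq (GRCm38.p6), from 250 bases before to 50 bases after each start, and are shown because Aox1 was low with treatment and the receptors bind DNA. Windows were found for 6 of the 7 genes, 12 in all; Crabp2 was not matched. They were searched on both strands for 4 motifs that do not overlap in these windows. AGGTCA, the core hexamer that dimers of the retinoid receptors recognise, was found in 3 of the 12 windows, those of Rara, Rarg and Rxra, and in 16.3% of the 32851 windows of all genes. The related hexamer AGTTCA was found in 1 window, of Rara, and in 14% of all windows. The palindrome GGCGCC, a sequence of G and C alone, was found in 3 windows and in 11.9% of all windows. The core of the TATA box, TATAAA, was found in 0 windows of these genes and in 13.6% of all windows. The Aox1 window held none of the 4 motifs. A match is a description of the letters and not a bound site. The Aox1 window is chr1:58029719-58030018 on the plus strand. The receptor windows that hold AGGTCA, in capitals as such or, where it lies on the other strand, as TGACCT, are chr11:98964622-98964921 (plus) for Rara, chr15:102257473-102257772 (minus) for Rarg and chr2:27709042-27709341 (plus) for Rxra, each 5′ to 3′ on the strand of the gene.
Aox1: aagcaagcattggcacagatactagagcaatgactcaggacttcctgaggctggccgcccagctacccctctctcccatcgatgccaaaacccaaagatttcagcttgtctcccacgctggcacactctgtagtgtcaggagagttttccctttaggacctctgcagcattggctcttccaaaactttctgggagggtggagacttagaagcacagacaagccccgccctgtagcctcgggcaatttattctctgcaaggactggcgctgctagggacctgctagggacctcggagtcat
Rara: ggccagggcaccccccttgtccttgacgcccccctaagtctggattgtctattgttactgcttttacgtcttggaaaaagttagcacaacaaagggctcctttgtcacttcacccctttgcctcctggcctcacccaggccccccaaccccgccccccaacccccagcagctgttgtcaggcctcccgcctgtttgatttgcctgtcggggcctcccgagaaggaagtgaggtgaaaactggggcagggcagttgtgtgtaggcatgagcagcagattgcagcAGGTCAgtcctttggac
Rarg: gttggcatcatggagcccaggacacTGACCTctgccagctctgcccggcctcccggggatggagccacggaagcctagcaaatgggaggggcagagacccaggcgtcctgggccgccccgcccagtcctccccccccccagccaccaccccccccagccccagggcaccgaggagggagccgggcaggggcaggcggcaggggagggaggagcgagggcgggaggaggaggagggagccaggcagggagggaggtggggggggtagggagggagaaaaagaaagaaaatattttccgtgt
Rxra: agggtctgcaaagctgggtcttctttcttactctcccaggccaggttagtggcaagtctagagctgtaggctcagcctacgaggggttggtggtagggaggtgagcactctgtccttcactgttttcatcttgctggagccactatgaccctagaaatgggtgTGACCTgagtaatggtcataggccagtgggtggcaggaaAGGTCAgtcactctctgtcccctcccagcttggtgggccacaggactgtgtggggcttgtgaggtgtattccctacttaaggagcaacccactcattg

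Rxra holds the hexamer once on each strand of that window, while its second window and the other Rara and Rarg windows hold none. The array cannot tell from which start a transcript came.

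Rara (probe set 92901_at), the alpha receptor for retinoic acid, had the largest treated against GP difference of the receptor genes at day 1. It was 164, 157 and 130.1 units at day 0, 159, 113 and 126 in GP cultures at day 1, and 159.5, 106 and 65.7 in GP cultures at day 3. Treated values were 108, 75.5 and 71.0 at day 1 and 116, 72.9 and 75.4 at day 3. Treated values lay below those of day 0 at both days and below GP at day 1, but overlapped with GP at day 3, where GP replicate 3, whose actin ratio was high, was the lowest of all. Values of treated and GP cultures did not overlap for 3 of the 7 retinoid probe sets at day 1 (Crabp2, Aox1 and Rara) and for 2 at day 3 (Crabp2 and Aox1), where 17.1% and 20.1% of all tested probe sets did not overlap. Crabp2 and Aox1 were selected for low treated values, so nothing is read from these counts. Replicate 1 had the highest Rara value in 5 of 5 groups.

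The Rara difference between treated and GP cultures was -0.65 ± 0.30 (SE) at day 1, with -0.55, -0.58 and -0.83 within replicates 1, 2 and 3. It did not pass the threshold at day 1 in the main fit or in any of 18 alternatives. At day 3 it was -0.26 ± 0.30, with -0.45, -0.53 and 0.20. Replicate 3 went the other way at day 3, and without GP day 3 replicate 3 the difference was -0.59 ± 0.28, while without GP day 3 replicate 1 it was 0.05. Against day 0, which shares the treated arrays, Rara was at -0.84 ± 0.30 at day 1 and -0.80 ± 0.30 at day 3, lower in 3 of 3 replicates each time. The limma adjusted p was 0.156 and 0.208, and with the replicate block 0.0104 and 0.0154, so Rara fell against day 0 with the block only. Over the alternatives these adjusted p-values ran from 0.0104 to 0.691 and from 0.0154 to 0.71.

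Counted over the retinoid probe sets, 2 of 7, Crabp2 and Aox1, passed the threshold against day 0 at each day without the block, and 3 with it, Rara being added, each of them lower. Crabp2 and Aox1 were selected on these treated arrays, so nothing is read from these counts either. Of all tested probe sets 3.98% passed at day 1 and 2.62% at day 3 without the block, and 12% and 11.7% with it. Values did not overlap with day 0 for these 3 at both days, where 20.5% and 19.4% of all did not overlap. Without day 0 replicate 1 the day 1 count was 1. The day 3 count was 1 when any single array of either group was left out, and both were 0 without all arrays of replicate 1 or of replicate 2. Aox1 was at -2.46 ± 0.28 (SE) against day 0 at day 1 and -1.13 ± 0.28 at day 3.

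GP cultures alone showed a lower Rara mean at each later time, at 150 ± 17.9 on day 0, 133 ± 23.8 on day 1 and 110.2 ± 47.1 on day 3 (SD, n = 3), but the values overlapped. The log2 difference was -0.19 ± 0.30 (SE) for day 1 against day 0 and -0.53 ± 0.30 for day 3 against day 0 (limma adjusted p = 1 for both). In order of its group means Rara was highest at day 0 and lowest in treated day 1 cultures, at 85.0 ± 20.4, next to treated day 3 at 88.2 ± 24.4, and these treated groups differed by less than their spread.

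Rarg (probe set 102419_at), the gamma receptor, was 238, 164 and 211 units at day 0, 164, 161 and 156 in GP cultures at day 1, and 183, 155 and 183 in GP cultures at day 3. In treated cultures it was 143, 160 and 232 at day 1 and 178, 153 and 228 at day 3. The GP day 1 values were close together and lay just below those of day 0, in a comparison where 9.18% of all tested probe sets did not overlap, and replicate 3 was the highest treated value at both days. The treated against GP difference was 0.12 ± 0.21 (SE) at day 1 and 0.09 ± 0.21 at day 3, from -0.19, -0.01 and 0.58 and from -0.04, -0.02 and 0.32 within replicates 1, 2 and 3. Both signs therefore came from replicate 3, without which the differences were -0.10 and -0.03. GP day 1 against day 0 gave -0.33 ± 0.21 (limma adjusted p = 1).

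Rxra, the alpha RXR gene, had 2 probe sets designed from 1 accession, the second with the manufacturer's suffix for probes that may be shared with similar sequences. The first (92234_at) was 346, 290 and 286 units at day 0, 332, 320 and 222 in GP cultures at day 1, and 331, 319 and 222 in GP cultures at day 3. Treated cultures had 386, 284 and 241 at day 1 and 313, 419 and 225 at day 3. Replicate 3 was the lowest of its group in 5 of 5 groups on both probe sets, and the spread between replicates was wider than that between group means. Arrays of replicate 3 had 12.1% to 14.3% of their values at the floor, as given above, and the part of this in the Rxra values was not tested. The treated against GP difference was 0.05 ± 0.25 (SE) at day 1 and 0.11 ± 0.25 at day 3.

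The second Rxra probe set (92235_g_at) was 133, 104 and 74.3 units at day 0, 151, 154 and 85.9 in GP cultures at day 1, and 131, 157 and 62.1 in GP cultures at day 3. With treatment it was 154, 133 and 101 at day 1 and 146, 162 and 91.3 at day 3. All groups overlapped with each other. Its treated against GP difference was 0.01 ± 0.36 at day 1 and 0.25 ± 0.36 at day 3. Over the 15 arrays the log2 values of both Rxra probe sets had a Pearson correlation of 0.815, given as a description, since they share arrays and replicate differences. Without GP day 3 replicate 3, the lowest value of this probe set, the day 3 difference was -0.15.

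Rxrb (probe set 102398_at), the beta RXR gene, was 596, 213 and 485 units at day 0, 382, 710 and 492 in GP cultures at day 1, and 345, 361 and 313 in GP cultures at day 3. Treated values were 537, 442 and 483 at day 1 and 638, 505 and 332 at day 3. Day 0 replicate 2 was the lowest of all 15 values and GP day 1 replicate 2 the highest, 3.33-fold apart. At day 3 the treated value was the higher in 3 of 3 replicates, by 0.89, 0.48 and 0.09 on the log2 scale, although the groups overlapped, with a difference of 0.49 ± 0.34 (SE). At day 1 the difference was -0.07 ± 0.34. GP day 3 values lay below all GP day 1 values, at -0.59 ± 0.34, where 11.4% of all tested probe sets did not overlap, and the difference did not pass (limma adjusted p = 0.899).

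**Figure D3:**
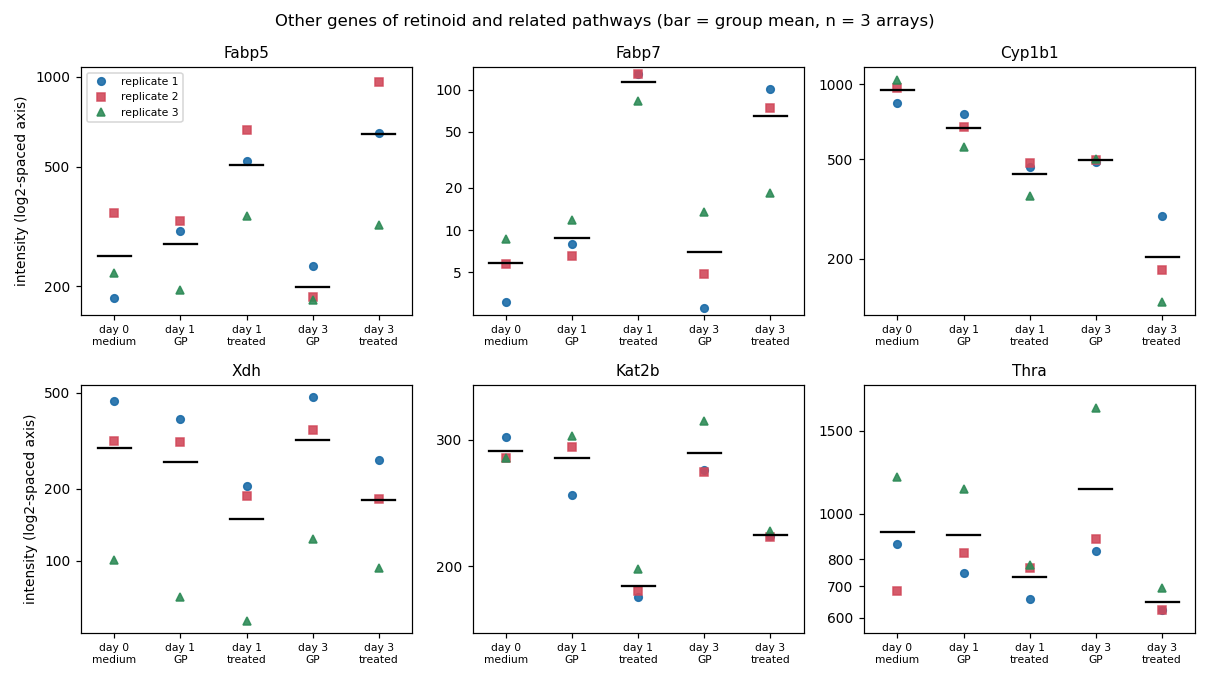
Intensity (log2-spaced vertical axis) on each array of 6 other genes of retinoid and related pathways, by group, with 1 marker shape per replicate and a bar at the mean of 3 arrays. Fabp5 and Fabp7 sit higher and Cyp1b1 and Kat2b lower in treated than in GP cultures at both days, and Xdh is lower in treated cultures within each replicate although its replicates lie far apart.

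Genes that make or break down retinoids showed 1 decrease between treated and GP cultures. Of 23 listed, 15 were on the array and 9 passed the filter; 0 rose and 0 fell at day 1, and 0 rose and 1 fell at day 3, where 0.926% and 4.11% of all tested probe sets passed. At day 1 3 of the 9 had an unadjusted p under 0.05, as did 842 of all 7453. Their median log2 difference was -0.25 at day 1 and -0.13 at day 3, against -0.00 for all probe sets at both days. The gene that fell was Cyp1b1, a cytochrome that oxidises steroids and foreign compounds and can oxidise retinol. It was 844, 969 and 1042 units at day 0, 762, 676 and 559 in GP cultures at day 1, and 489, 499 and 504 in GP cultures at day 3. Treated cultures had 468, 486 and 356 at day 1 and 297, 179.7 and 134 at day 3, below GP with no overlap at either day. The difference was -0.61 ± 0.23 (SE) at day 1 (limma adjusted p = 0.313) and -1.37 ± 0.23 at day 3 (0.00577). A second probe set of Cyp1b1 lay under the floor of 2.8 on every array, and the day 3 call was lost without all arrays of replicate 2 (0.28) and when the fit held no arrays but those of day 3 (0.0726). Cyp26a1, the main retinoic acid hydroxylase, did not pass the filter. Against day 0, 1 of the 9 rose and 1, again Cyp1b1, fell in treated day 1 cultures, where 3.98% of all passed. The gene that rose was Rdh11, a retinal reductase, named after its values were seen, at 0.68 ± 0.14 against day 0 and 0.45 ± 0.14 against GP.

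Xdh, xanthine dehydrogenase, is a molybdenum enzyme of the same family as AOX1. Of 10 listed genes for such enzymes and their cofactor, 5 were on the array, 3 passed the filter and 0 passed the threshold at either day (0 at an unadjusted p under 0.05). Xdh was 388, 312 and 70.7 units in GP and 204, 186 and 56.4 in treated cultures at day 1. At day 3 it was 479, 349 and 124 in GP and 262, 181 and 93.1 in treated cultures. It was lower with treatment within every replicate, with log2 differences of -0.93, -0.74 and -0.33 at day 1 and -0.87, -0.95 and -0.41 at day 3, but replicate 3 was low in every group. Its difference was -0.67 ± 0.75 (SE) at day 1 and -0.74 ± 0.75 at day 3, with limma adjusted p-values of 0.884 and 0.705, and of 0.0536 and 0.016 with the replicate block, so Xdh fell at day 3 with the block only. Mocs2, of molybdenum cofactor synthesis, was at -0.01 ± 0.17 and 0.14 ± 0.17 (0.995 and 0.771).

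The other RAR and RXR genes and the partners of RXR gave no call without the block. Of 15 listed, 13 were on the array and 7 passed the filter, with 0 past the threshold at either day and 1 each day at an unadjusted p under 0.05. Thra, the alpha thyroid hormone receptor and a partner of RXR, was 835, 881 and 1674 units in GP and 625, 625 and 694 in treated cultures at day 3. The treated values lay below the GP values, and GP replicate 3, whose actin ratio was high, was far above the others. The log2 difference within replicates 1, 2 and 3 was -0.42, -0.50 and -1.27. The fitted difference was -0.73 ± 0.26 (SE) at day 3 (limma adjusted p = 0.14, and 0.0103 with the block) and -0.27 ± 0.26 at day 1 (0.843). A dimmer probe set of Thra gave 0.28 ± 0.26 and 0.09 ± 0.26 at days 1 and 3, of the opposite sign. Nr1h4, the bile acid receptor, was at 1.38 ± 0.55 at day 1 (0.334) and -0.03 ± 0.55 at day 3 (0.99), from values between 4.5 and 45.6 units near the filter.

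Of 16 listed coregulators of nuclear receptors 11 were on the array and 9 passed the filter. At day 1, 0 rose and 1 fell, and at day 3, 0 rose and 0 fell, where 0.926% and 4.11% of all tested probe sets passed. At day 3 1 of the 9 had an unadjusted p under 0.05, as did 1245 of all 7453. The gene that fell at day 1 was Kat2b, a histone acetyltransferase also called PCAF. It was 251, 294 and 304 units in GP and 181, 185 and 198 in treated cultures at day 1, and 273, 271 and 319 in GP and 220.2, 219.6 and 224 in treated cultures at day 3. Treated values lay below GP at both days with no overlap. The difference was -0.59 ± 0.13 (SE) at day 1 (limma adjusted p = 0.0477) and -0.37 ± 0.13 at day 3 (0.127, and 0.0397 with the block). The day 1 call lay close to the threshold and was lost in 12 of 18 alternatives, among them every fit that left out an array of either group, with adjusted p-values from 0.00886 to 0.928. A dimmer probe set of Kat2b, which did not pass the filter, had the opposite sign at day 1, at 0.51 ± 0.41 and higher in 3 of 3 replicates, and was at -0.02 ± 0.41 at day 3.

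Known targets of retinoic acid gave no call. Of 27 listed, 20 were on the array and 11 passed the filter, with 0 past the threshold at either day with or without the block and 0 at an unadjusted p under 0.05. Their median log2 difference was -0.02 at day 1 and 0.00 at day 3. Nr2f1, a nuclear receptor gene induced by retinoic acid, had the smallest p of the list. It was 255, 258 and 203 units in GP and 194, 155 and 179 in treated cultures at day 1, without overlap, and 296, 295 and 216 in GP and 226, 239 and 138 in treated cultures at day 3. The difference was -0.44 ± 0.21 (SE) at day 1 (limma adjusted p = 0.475) and -0.45 ± 0.21 at day 3 (0.31), lower in 3 of 3 replicates each time. Bhlhe40, a helix-loop-helix repressor, was at -0.70 ± 0.41 at day 1 (0.595) and 0.33 ± 0.41 at day 3 (0.774). A p that misses the threshold does not show that these genes did not change.

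The genes whose levels over the 15 arrays were most like those of Crabp2 were sought among 5637 tested genes by Pearson correlation of log2 values, as a description without a test. Rhob, a small GTPase of the endosome, came first with 0.946, then Slc29a1, a nucleoside transporter, with 0.938, and H2-DMa, a chaperone of antigen presentation, with 0.935. Rhob was 633 ± 87.6 units at day 0, 492 ± 76.1 and 536 ± 72.4 in GP cultures and 296 ± 87.0 and 267 ± 54.7 in treated cultures at days 1 and 3 (SD, n = 3). Like Crabp2 it was low in treated cultures at both days, by a smaller factor. For Aox1 the closest were Traf5, an adaptor of tumour necrosis factor receptors, with 0.933, Snapin, a protein of vesicle fusion, with 0.924, and Kdm3a, a histone demethylase, with 0.921. Traf5 was 184 ± 31.2 and 299 ± 24.2 in GP cultures and 85.3 ± 20.0 and 151 ± 13.8 in treated cultures at days 1 and 3. Like that of Aox1, its treated mean was lower at day 1 than at day 3. The GP mean of Traf5 was also lower at day 1, while the GP values of Aox1 overlapped between the days. Crabp2 and Aox1 had a correlation of 0.798 with each other. All these points share the arrays and the treated groups that are low.

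**Figure D4:**
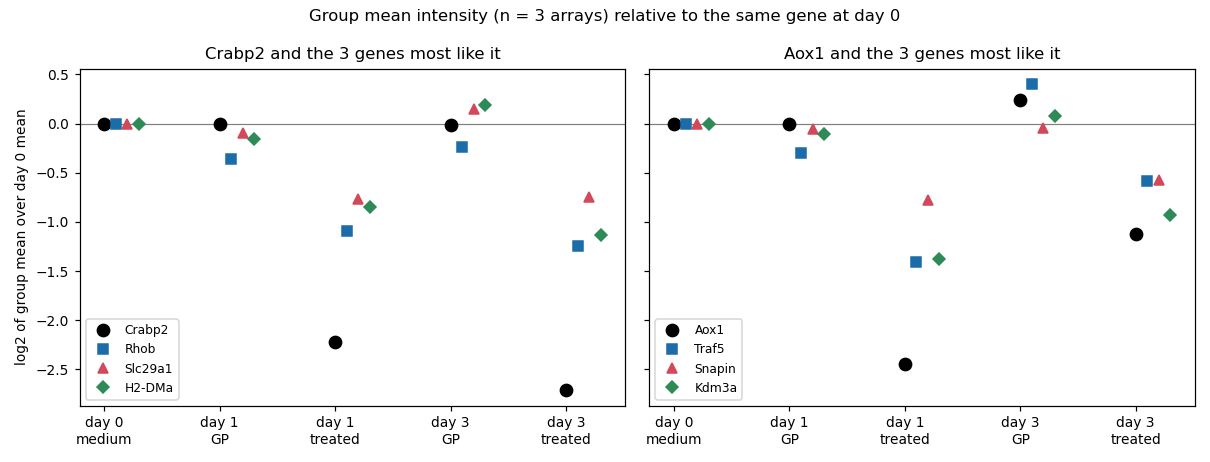
Group mean intensity (n = 3 arrays) relative to the same gene's day 0 mean, on a log2 scale, for Crabp2 (left) and Aox1 (right, black points) with the 3 genes most correlated with each. All 8 genes are lower in both treated groups than at day 0, and Aox1, Traf5, Snapin and Kdm3a have their lowest mean in treated day 1 cultures.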

How the data were processed

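Total RNA of 15 samples was measured on single-colour arrays. The authors deposited linear intensities per probe set (unit intensity), and the trimmed mean was 150.1 on every array. The software behind these values is not given in the sources used here. From these, the 66 control probe sets were left out, values under 2.8 (the 10th percentile) were set to 2.8, and log2 was taken. The log2 values of each probe set were averaged over the 15 arrays and turned back to intensity units. Probe sets for which this mean was under 22.3 (the 40th percentile) were removed. Gene names came from the platform annotation: of 12422 probe sets, 10833 had 1 symbol, 396 several and 1193 none.

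Comparisons between groups used R 4.3.3 and limma 3.58.1. Its eBayes step had a mean trend, and 1 linear model held all 15 arrays, with 10 residual degrees of freedom. The p-values were adjusted by the Benjamini-Hochberg method over 7453 probe sets and called at 0.05. The steps were checked on simulated data with independent noise on each array and no shift between replicates. That check therefore does not cover the replicate differences of the real arrays. Deviations from group means correlated by 0.19 to 0.703 in the 30 pairs of arrays with the same replicate number and by -0.566 to 0.255 in the 60 other pairs, so the numbers pair the arrays. The main fit does not use this pairing, so shifts between replicates stay in its SE and p-values. Every SE in the text comes from that fit. For Rara, treated against GP at day 1, the SE was 0.30 without the block and 0.19 with it. For the second Rxra probe set it was 0.36 and 0.17, and for Crabp2 0.47 and 0.45. The fit with the number as a block (8 residual degrees of freedom) is given beside a result where it changes a call.

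The genes and lists were chosen with earlier results of these data known, so the p-values of list genes are not free of that knowledge. All probe sets of the 7 genes are named, and from each list the genes past the threshold at day 1 or day 3, or otherwise the 2 with the smallest p. A list gene with several probe sets is given by the brightest. Alternatives were floors at the 25th and 60th percentiles (9.3 and 78.9), no signal filter, quantile normalization, median scaling, no mean trend, array weights, the replicate block, only the groups compared, and leaving out each array or each replicate number.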

Additional observations from a re-analysis of the deposited data

How the results depend on the processing

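For Crabp2 and Aox1 the log2 difference between treated and GP cultures kept its sign in all 18 alternatives at each day, from -2.94 to -1.94 and -2.73 to -0.33 at day 1, and from -3.44 to -2.58 and -1.54 to -0.64 at day 3. Both genes were selected for this difference on these same arrays, so the kept sign is a description and not independent support. Counts of retinoid probe sets past the threshold moved more. At day 1 the count of 2 became 0 with the higher floor (60th percentile) and in a fit of only the groups compared, and 1 with no signal filter and with no mean trend, and it was 0 to 2 when an array or replicate was left out. At day 3 the count of 2 became 1 with that floor and with only the groups compared, and was 0 to 2 in the leave-outs. Against day 0 the day 1 count of 2 became 1 with that floor and with only the groups compared, and 0 to 2 in the leave-outs. The day 3 count of 2 became 1 with that floor, no signal filter, median scaling, no mean trend and only the groups compared, and 0 to 1 in the leave-outs. The cause was not tested, except that leave-outs and fits of fewer groups hold fewer arrays.

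With the replicate number as a block, the count for treated day 3 against day 1 went from 0 to 1, as it did with array weights, and the counts against day 0 went from 2 to 3. The block changed no other count of retinoid probe sets.

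Signs that turned were those of small differences when arrays were left out. At day 1 the range was -0.10 to 0.28 for Rarg, -0.13 to 0.21 and -0.27 to 0.18 for the 2 Rxra probe sets and -0.36 to 0.23 for Rxrb. At day 3 it was -0.59 to 0.0496 for Rara, -0.0699 to 0.22 for Rarg, and -0.11 to 0.34 and -0.15 to 0.52 for Rxra. With array weights the second Rxra probe set was at -0.065 at day 1. With the 60th percentile floor the Aox1 difference between the day 3 and day 1 effects was -0.31, because every treated value then lies at the floor.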
